A study of Mus musculus with 12 samples.

Results

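The genes described here act in mitosis: 60 genes of the spindle, the kinetochore, the spindle checkpoint, chromosome condensation and cytokinesis, followed in mouse tongue tumours and normal tongue. They were chosen by name from what is known of cell division, each through the probe with the highest mean log2 value among its probes. Earlier results of these data were known when these genes and the other gene lists below were chosen. Counts over them therefore describe the genes and are no independent test. The deposited table held a probe named for 50 of the 60, and 39 of these 50 lay above the background of the arrays on at least 5 of 12 arrays. The remaining 10 genes, Aurkb, Ccnb1, Cdkn3, Cenpf, Ckap2, Kif20b, Mki67, Ncapg, Racgap1 and Smc4, have no named probe in the annotation used and were not analysed here.

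RNA from 12 pieces of tongue tissue of B6 mice, given as 8 months old, was hybridised to Illumina single-colour bead arrays, 1 array per piece. The 5 normal tongues came from control mice given DMSO for 8 weeks. The 7 tongue tumours came from mice given 4NQO (4-nitroquinoline 1-oxide, a chemical that damages DNA) at 200 µg/mL together with arecoline (an alkaloid of the areca nut) at 500 µg/mL for 8 weeks. A rest of 20 weeks followed in both groups before tissue was taken. The design sets tumour against normal tongue. Tumours differ from controls in carcinogen exposure and in being a tumour at once, and no treated tongue without a tumour is among the samples. Whether each piece came from its own mouse is not given, and p-values therefore cover only the spread between pieces.

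Entry into mitosis is driven by cyclin-dependent kinase Cdk1 with its cyclins, and the spindle then attaches to each chromosome at the kinetochore, a protein complex built on the centromere. The spindle checkpoint holds the anaphase-promoting complex in check until all chromosomes are attached, after which sister chromatids separate and the cell divides. Transcripts of most of these genes rise and fall with the cell cycle, so in squamous epithelium such as that of the tongue they come mainly from dividing cells of the basal layers.

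In the tumours 36 of the 39 measured mitotic genes were higher, 1 was lower and 2 were not called (limma, Benjamini-Hochberg adjusted p under 0.05). Over all 10789 genes measured, 32.5% were called higher and 23.6% lower. The median log2 change of the mitotic genes, tumour minus normal, was 1.45, against 0.07 for all genes. At least 2-fold rises were called for 29 of the 39, where 6.17% of all genes had one, and none fell that far, against 9.22% of all genes. Every tumour lay above every normal tongue for 34 of the 39 genes, against 20.9% of all genes, and every tumour lay below every normal for 1, against 16.9% of all genes. By size of rise, 7 mitotic genes stood among the 100 largest of all genes and 27 among the 500 largest.

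Of the 39 genes, 29 were above background on every array, and Ube2c alone on no normal tongue. A gene that passed the filter mainly through the tumours had to be higher there, so the counts describe the genes that passed and not all 60. The calls depend on the level taken as unchanged. Of all genes called, 58.0% were higher here, 46.2% under cyclic loess and 13.8% after centring each array on reference genes, which were themselves higher in the tumours by a median of 0.55. With that centring 32 mitotic genes were higher and 2 lower, where 9.82% of all genes were called higher and 61.3% lower, and the median was 0.98 for the mitotic genes against −0.40 for all genes.

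**Figure D1:**
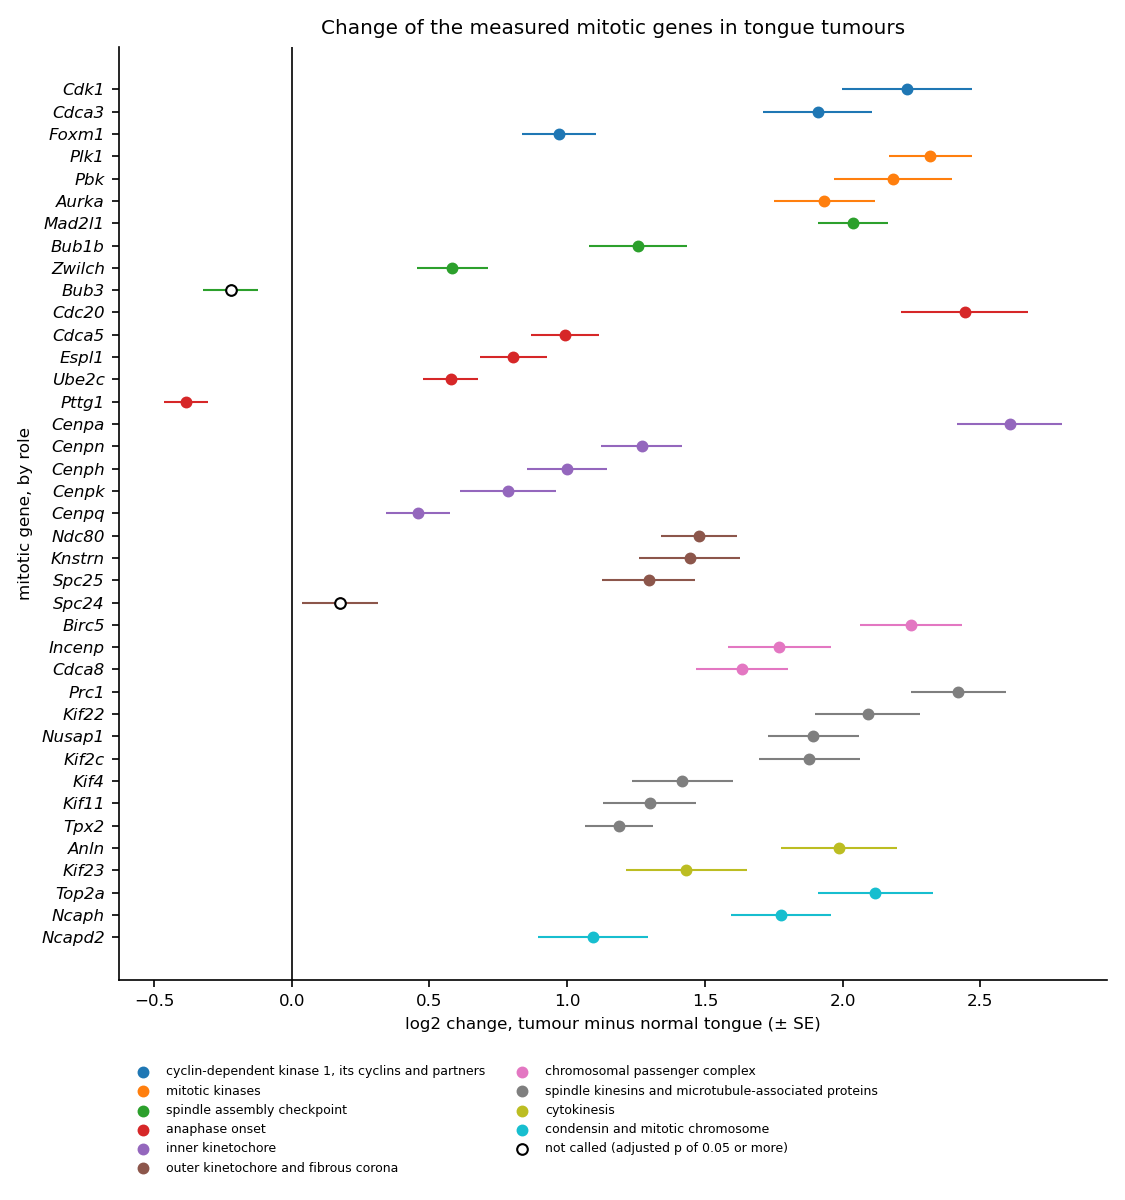
Log2 change (tumour minus normal tongue, horizontal axis) of the 39 measured mitotic genes, grouped and coloured by role, with bars of 1 SE over 5 normal and 7 tumour arrays. Open circles mark the 2 genes not called, Bub3 and Spc24, and Pttg1 is the gene that fell.

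Promoters of these genes share short sequences that the choice of genes did not use. In the 300 bases around the RefSeq start (250 before, 50 after, GRCm38.p6), 50 of the 60 genes could be read. The hexamer TTTGAA, on either strand, stood in 36 of these 50 promoters (72.0%), against 18.5% of 17492 protein-coding genes and 14.8% of the genes measured on the arrays. It is the letter sequence of the cell cycle genes homology region, to which the MuvB complex binds in promoters of late cell cycle genes. The pentamer CCAAT, the letters of the NF-Y binding box, stood on either strand in 38 of 50 (76.0%), against 42.3% of protein-coding genes. A CCAAT followed by a TTTGAA whose first base lay 20 to 40 bases downstream, a spacing chosen after the promoters were seen, stood in 18 of 50 (36.0%), against 1.08% of protein-coding genes. At that distance the 2 motifs cannot overlap. These are matches of letters and not shown to be bound.

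The 120 bases before the start are shown for 7 genes, 5 that rose and hold such a pair (Prc1, Cdc20, Cdk1, Kif22 and Ube2c), and the 2 members with a negative change (Bub3 and Pttg1). Sequences run 5′ to 3′ on the strand of the gene, and capitals mark CCAAT or TTTGAA, which read ATTGG or TTCAAA where the motif lies on the other strand. Prc1 and Bub3 have 2 starts each, and the start shown is one whose 120 bases hold both motifs. The stretches are chr7:80294356-80294475 (plus strand) for Prc1, chr4:118437344-118437463 (minus) for Cdc20, chr10:69352913-69353032 (minus) for Cdk1, chr7:127042421-127042540 (minus) for Kif22, chr2:164769809-164769928 (plus) for Ube2c, chr7:131560250-131560369 (plus) for Bub3 and chr11:43425982-43426101 (minus) for Pttg1.
Prc1: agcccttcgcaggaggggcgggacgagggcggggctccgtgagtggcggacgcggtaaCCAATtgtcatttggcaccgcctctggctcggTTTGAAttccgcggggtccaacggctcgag
Cdc20: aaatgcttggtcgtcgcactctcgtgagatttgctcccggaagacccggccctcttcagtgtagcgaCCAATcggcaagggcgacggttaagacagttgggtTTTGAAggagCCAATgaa
Cdk1: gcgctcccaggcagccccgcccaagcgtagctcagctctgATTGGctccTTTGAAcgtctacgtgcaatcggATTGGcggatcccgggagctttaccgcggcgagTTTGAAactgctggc
Kif22: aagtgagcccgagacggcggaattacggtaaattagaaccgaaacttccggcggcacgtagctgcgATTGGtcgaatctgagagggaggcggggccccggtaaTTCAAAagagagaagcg
Ube2c: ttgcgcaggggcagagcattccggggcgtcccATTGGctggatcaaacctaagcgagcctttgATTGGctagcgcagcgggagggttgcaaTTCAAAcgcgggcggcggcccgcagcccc
Bub3: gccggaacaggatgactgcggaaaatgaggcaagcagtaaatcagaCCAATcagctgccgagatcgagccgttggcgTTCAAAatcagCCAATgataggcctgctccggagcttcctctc
Pttg1: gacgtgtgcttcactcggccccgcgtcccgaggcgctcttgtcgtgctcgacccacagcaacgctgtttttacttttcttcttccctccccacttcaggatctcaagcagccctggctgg
The distance from the first base of the CCAAT to the first base of the TTTGAA is 32 bases in Prc1, 35 in Cdc20, 33 in Cdk1, 37 in Kif22, 28 in Ube2c and 31 in Bub3. Pttg1 has neither motif in its 300 bases, and Bub3 has both. The share with TTTGAA was 76.9% of 26 promoters of genes that rose at least 2-fold, and 70.6% of 17 promoters of listed genes that were below background or had no probe.

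Genes of Cdk1 and its partners rose in 3 of 3 measured cases. Cdk1, the kinase that drives entry into mitosis, had log2 signals of 6.88, 7.88, 7.61, 7.55 and 7.55 in the 5 normal tongues, and 8.90 (lowest), 9.81 (median) and 10.36 (highest) in the tumours. The groups did not overlap, and the change was 2.23 (SE 0.23, adjusted p = 4.85e-06), a 4.70-fold rise. Foxm1, the transcription factor that activates many G2 and mitotic genes, had 6.89, 7.28, 7.03, 6.90 and 7.00 in normal tongue and 7.54, 8.07 and 8.27 (lowest, median, highest) in the tumours. Its rise was the smallest of the role at 0.97 (SE 0.13, adjusted p = 4.88e-05), and its second probe gave 1.14. Cdca3, which helps to degrade the Cdk1 inhibitor Wee1, rose by 1.91. The cyclins Ccna2 and Ccnb2 and the Cdk1-binding proteins Cks1b and Cks2 lay below background on all 12 arrays, so that no cyclin of the list could be followed here.

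The mitotic kinases Plk1, Pbk and Aurka rose in 3 of 3 cases, by 2.32, 2.18 and 1.93. Plk1, which acts at centrosomes, kinetochores and the midzone, had 7.03, 7.33, 7.38, 7.51 and 7.19 in normal tongue and 8.97, 9.68 and 9.91 (lowest, median, highest) in the tumours. The lowest tumour thus stood 1 log2 unit or more above each normal, and Plk1 rose 4.99-fold (SE of log2 change 0.15, adjusted p = 1.13e-07). Aurka, the spindle pole kinase, had 6.88, 7.03, 6.97, 6.89 and 6.55 in normal tongue and 8.08, 8.91 and 9.31 in the tumours, again without overlap (SE 0.18, adjusted p = 1.89e-06). Ttk, the checkpoint kinase Mps1, was above background on 1 tumour only and on no normal.

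Checkpoint genes were uneven. Mad2l1, which with Bub1b and Bub3 forms the complex that inhibits Cdc20, had 7.62, 7.89, 7.67, 7.82 and 7.80 in normal tongue and 9.39, 9.79 and 10.28 (lowest, median, highest) in the tumours. It rose by 2.04 (SE 0.13, adjusted p = 9.49e-08). Its partner Bub3 had 8.21, 8.12, 8.27, 8.15 and 7.97 in normal tongue and 7.68, 7.91 and 8.23 in the tumours. These groups overlapped, and the change of −0.22 (SE 0.10, adjusted p = 0.0791) was not called. Bub3 was called lower under cyclic loess (−0.35, adjusted p = 0.00550), where 28.5% of all genes were called lower, and without tumour 5 (−0.27, adjusted p = 0.0242). After centring on reference genes its change was −0.69, but that centring moves every gene downward and most genes were called lower with it. Bub1b, the checkpoint protein BubR1, rose by 1.26 and Zwilch, of the complex that recruits dynein to kinetochores, by 0.58. The Zwilch probe used had overlapping groups, was above background on 3 of the 5 normals, and was at 0.11, not called, after centring on reference genes. Other measured probes of Zwilch gave 0.54, without overlap, and 0.26, both called. The kinase Bub1 was below background on all arrays.

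At anaphase onset the activator of the anaphase-promoting complex and the inhibitor that it destroys went opposite ways. Cdc20, the activator, had 7.94, 8.47, 8.46, 8.95 and 8.47 in normal tongue and 9.86, 11.04 and 11.30 (lowest, median, highest) in the tumours, a 5.44-fold rise (log2 2.44, SE 0.23, adjusted p = 2.02e-06). Its 3 other measured probes gave 2.31, 1.84 and 0.89, all called. Pttg1, the securin that holds separase inactive, had 6.94, 7.05, 7.09, 7.11 and 7.09 in normal tongue and 6.41, 6.71 and 6.86 in the tumours. Each tumour lay below each normal, and Pttg1 fell by 0.38 (SE 0.08, adjusted p = 0.00107), or by 0.34 to 0.42 with any 1 array left out. Its signal was close to background, above it on 6 of 7 tumours, and only 1 probe measured it. Separase itself, Espl1, rose by 0.80, Cdca5 (sororin, which protects cohesion until anaphase) by 0.99 and Ube2c, the ubiquitin-conjugating enzyme of the anaphase-promoting complex, by 0.58. Espl1 was above background on only 3 of the 5 normals. Ube2c was on no normal above background, which gives a rise of at least 1.29-fold against the background level, and its change was 0.11, not called, after centring on reference genes.

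**Figure D2:**
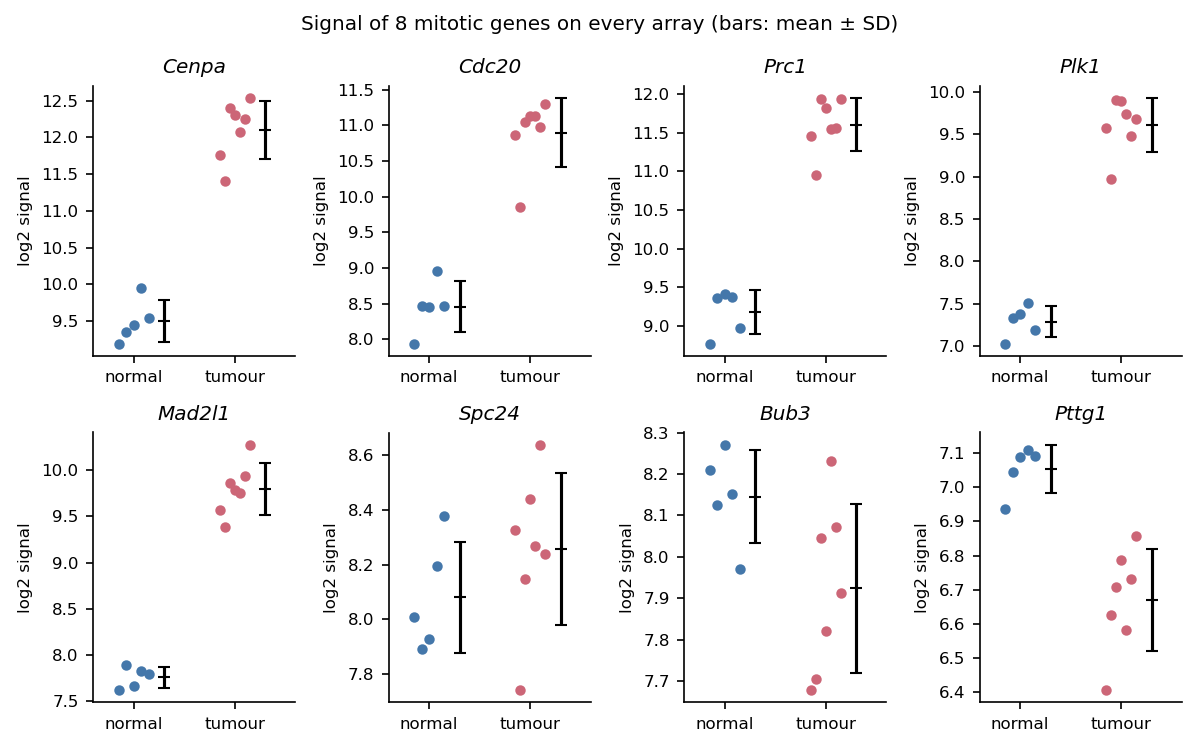
Log2 signal (vertical axes, each with its own range) of 8 mitotic genes on the 5 normal tongues (blue) and 7 tumours (red), with mean ± SD beside the points. Cenpa, Cdc20, Prc1, Plk1 and Mad2l1 separate the groups upward, Pttg1 separates them downward, and Spc24 and Bub3 overlap.

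All 5 inner kinetochore genes rose, over a wide range. Cenpa, the histone H3 variant that marks the centromere, rose most of all mitotic genes measured. It had 9.19, 9.36, 9.44, 9.96 and 9.55 in normal tongue and 11.40, 12.26 and 12.53 (lowest, median, highest) in the tumours, a 6.09-fold rise (log2 2.61, SE 0.19, adjusted p = 2.53e-07). Cenpq, a subunit of the constitutive centromere network, had 7.72, 7.35, 7.53, 7.37 and 7.54 in normal tongue and 7.53, 8.00 and 8.23 in the tumours. Its groups overlapped, with tumour 2 below normals 1, 3 and 5, and its change of 0.46 (SE 0.12, adjusted p = 0.00445) became −0.01 after centring on reference genes. The network's other subunits Cenpn, Cenph and Cenpk rose by 1.27, 1.00 and 0.78, and Cenpk was not called after that centring (0.32, adjusted p = 0.0993). Cenph was above background on 1 of the 5 normals and on all 7 tumours, so it passed the filter mainly through the tumours.

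In the outer kinetochore, which binds microtubules, 3 of 4 genes rose. Ndc80, whose protein contacts the microtubule, had 6.21, 6.61, 6.71, 6.42 and 6.52 in normal tongue and 7.43, 8.02 and 8.21 (lowest, median, highest) in the tumours. The groups did not overlap (log2 change 1.48, SE 0.14, adjusted p = 1.89e-06). Ndc80 was above background on only 3 of the 5 normals, so the size of its rise is less certain. Knstrn, which localises to kinetochores and spindle and promotes anaphase, rose by 1.45.

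Spc24 and Spc25 form the dimer that anchors the Ndc80 complex, and their probes changed unequally. Spc25 had 6.65, 6.86, 6.72, 6.63 and 6.65 in normal tongue and 7.37, 8.12 and 8.51 in the tumours (log2 change 1.30, SE 0.17). Spc24 had 8.01, 7.89, 7.93, 8.20 and 8.38 in normal tongue and 7.74, 8.27 and 8.64 in the tumours, overlapping, and was not called (0.18, SE 0.14, adjusted p = 0.303). After centring on reference genes its change was −0.29, also not called. Spc25 rose by 1.12 more than Spc24 on the log2 scale (exact permutation test over the 12 arrays, two-sided, p = 0.00253, the smallest they can give). The difference depends on the probe: the second, dimmer Spc24 probe was called higher by 0.83 (SE 0.12), and the mean of both gave 0.50, called. Of 9 pairs of paralogs or partners set for this comparison this was the 1 pair with both genes above background. Nuf2 and the kinesin Cenpe lay below background on all arrays.

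All 3 measured genes of the chromosomal passenger complex, which corrects faulty attachments, rose. Birc5 (survivin) had 7.61, 7.92, 7.78, 7.96 and 7.94 in normal tongue and 9.33, 10.22 and 10.64 (lowest, median, highest) in the tumours. Its change was 2.25 (SE 0.18, adjusted p = 6.27e-07), and its 2 other probes gave 2.37 and 2.03. Cdca8 (borealin) had 6.45, 7.02, 6.90, 7.00 and 6.93 in normal tongue and 7.73, 8.58 and 8.84 in the tumours, again without overlap (a 3.11-fold rise, SE of log2 change 0.17, adjusted p = 3.80e-06). Incenp, the scaffold of the complex, rose by 1.77.

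Spindle kinesins and microtubule-associated proteins rose in 7 of 7 cases, each at least 2-fold and each without overlap. Prc1, which bundles the microtubules of the midzone, had 8.77, 9.36, 9.41, 9.38 and 8.98 in normal tongue and 10.95, 11.56 and 11.94 (lowest, median, highest) in the tumours, a 5.35-fold rise (log2 2.42, SE 0.17, adjusted p = 2.15e-07). Tpx2, the activator of Aurka, had the smallest rise of the role, with 6.45, 6.78, 6.92, 6.76 and 6.68 in normal tongue and 7.45, 7.94 and 8.24 in the tumours (1.19, SE 0.12, adjusted p = 4.43e-06). The chromokinesin Kif22 rose by 2.09, the microtubule bundler Nusap1 by 1.89, the depolymerising kinesin Kif2c by 1.88, the chromokinesin Kif4 by 1.42 and Kif11 (Eg5, which pushes the spindle poles apart) by 1.30. For Kif4 2 dimmer probes gave 0.70 and 0.85, both called.

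Of the cytokinesis genes only Anln and Kif23 were above background, and both rose. Anln (anillin), a scaffold of the contractile ring, had 8.04, 8.82, 8.56, 8.70 and 8.45 in normal tongue and 9.70, 10.70 and 11.05 (lowest, median, highest) in the tumours (1.99, SE 0.21, adjusted p = 5.42e-06). Kif23, the kinesin of centralspindlin, had 7.06, 7.79, 7.77, 7.62 and 7.62 in normal tongue and 8.18, 9.11 and 9.57 in the tumours (1.43, SE 0.22, adjusted p = 1.19e-04). Neither gene had overlapping groups. Kif20a and Ect2 lay below background on all arrays.

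Condensin and chromosome genes rose in 3 of 3 cases. Top2a, which untangles sister DNA, had 7.53, 8.21, 7.89, 7.70 and 7.85 in normal tongue and 9.05, 9.99 and 10.40 (lowest, median, highest) in the tumours (2.12, SE 0.21, adjusted p = 2.84e-06). Ncapd2, a condensin I subunit, had 8.16, 8.40, 8.39, 8.35 and 8.45 in normal tongue and 8.76, 9.43 and 10.08 in the tumours (1.09, SE 0.20, adjusted p = 4.41e-04), and its 2 dimmer probes gave 0.44 and 0.35. The condensin I subunit Ncaph rose by 1.78, and the condensin core gene Smc2 lay below background on all arrays.

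Size of change followed brightness among these genes. The 19 with a mean deposited log2 value of at least 8 had a median change of 2.04, the 14 between 7 and 8 had 1.28, and the 6 below 7 had 0.68. This brightness is a mean over normals and tumours, so a large rise adds to it. Further measured probes existed for 11 of the genes, 17 in all, and every one of the 17 was called higher. Of these, 13 gave a smaller change than the brightest probe. A probe could pass the filter through the tumours alone, so this agreement can be partly built in. Other probes of Cdk1, Anln, Nusap1, Ndc80, Knstrn and Cenpk did not pass the filter. Their normal and tumour means were 6.31 and 6.38, and 6.01 and 6.02, for those of Cdk1. For those of Anln they were 6.05 and 6.32, without overlap of the groups, and 6.05 and 6.01. For those of Nusap1 they were 6.16 and 6.32, and 6.09 and 6.26. For that of Ndc80 they were 6.28 and 6.25, for that of Knstrn 6.32 and 6.29, and for that of Cenpk 5.98 and 6.06. The order of the genes is therefore an order of the probes' changes and not of transcript levels.

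**Figure D3:**
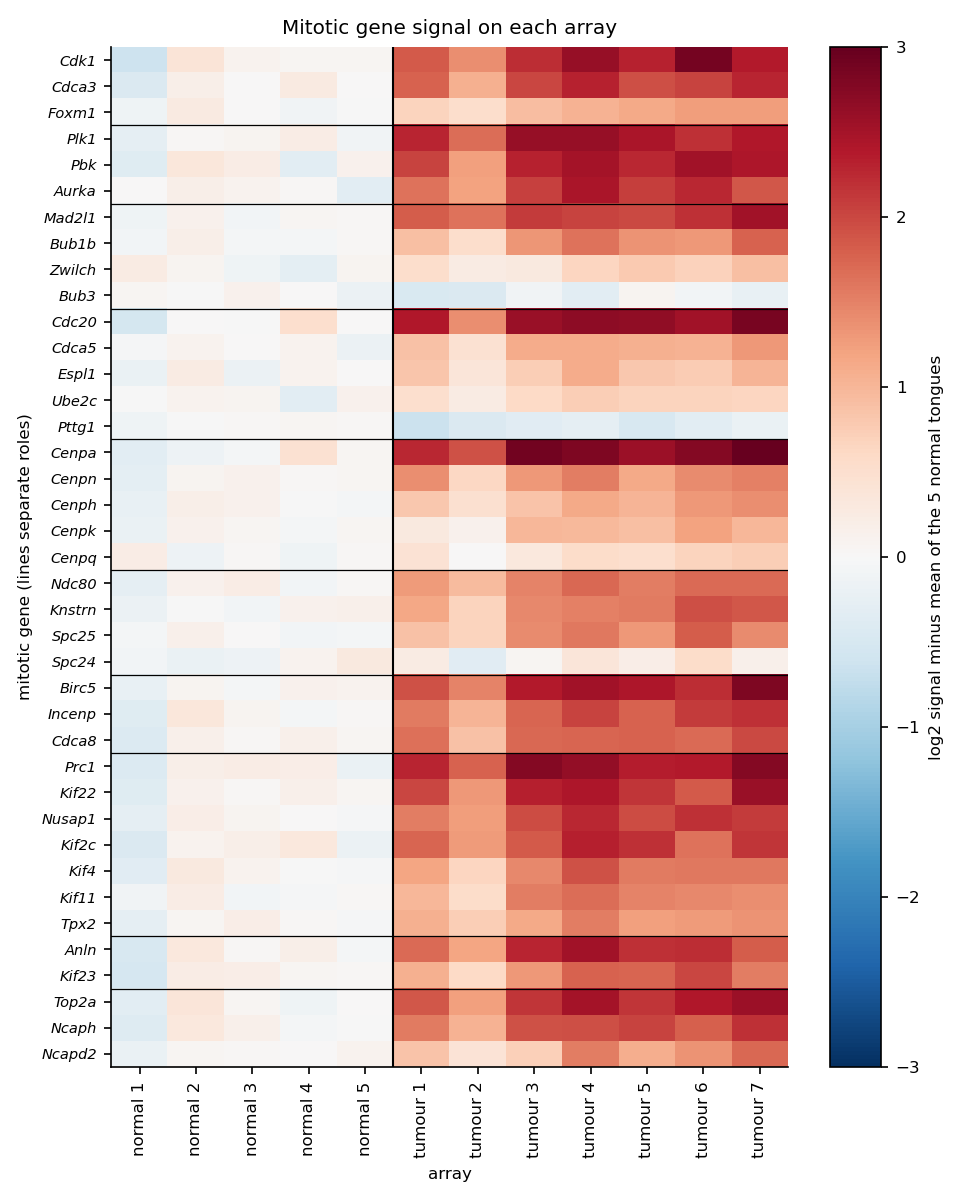
Log2 signal of each of the 39 measured mitotic genes (rows, grouped by role) on each array (columns), minus the gene's mean over the 5 normal tongues. The tumours are higher in nearly every row except those of Pttg1, Bub3 and Spc24, tumour 2 is the palest tumour, and normal 1 is the lowest normal.

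The genes varied together over the pieces. Tumour 2 had the lowest value of the 7 tumours for 37 of the 39 genes, and tumour 1 for the other 2. Tumour 7 was highest for 18 genes, tumour 4 for 12 and tumour 6 for 7. Among normal tongues, normal 1 was lowest for 31 genes and normal 2 highest for 20. The mean log2 signal of the 39 genes was 7.18, 7.55, 7.46, 7.45 and 7.42 in the normals, and 8.66, 8.22, 8.91, 9.11, 8.95, 9.03 and 9.12 in tumours 1 to 7. Its SD was 0.14 over normals and 0.32 over tumours.

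Other tissue changed on the same arrays. The counts of markers below stand beside 32.5% of all genes called higher and 23.6% called lower. All 18 measured skeletal muscle markers were lower in the tumours, and their mean log2 signal ran from 13.70 to 14.12 over the normals and from 8.47 to 12.66 over the tumours. Tumour 2 had the highest muscle signal of the tumours, and tumour 4 the second at 11.19 with a mitotic mean of 9.11. Salivary gland markers (4 of 8 with a probe above background) averaged 13.31 in normal 1 and 9.80 in tumour 2. On the remaining 10 arrays this mean lay between 6.39 and 7.69. All 4 markers were high in normal 1, whereas in tumour 2 Dcpp1 (12.63) and Aqp5 (12.39) were high and Amy1 (7.30) and Bpifa2 (6.88) were not. Without these 2 arrays 36 mitotic genes were higher, 1 lower, 31 at least 2-fold higher, and the median was 1.497. Markers of T and NK cells (3 of 7 measured higher or 42.9%, none lower, Cd4, Cd8a and Gzmb not passing the filter) averaged 6.35 to 6.44 over the normals. Their mean was 7.77 to 7.84 for the first 3 tumours and 6.57 to 6.93 for the other 4. Tumours 1 to 3 had the 3 lowest mitotic means of the 7, though tumour 3 (8.91) lay close to tumour 5 (8.95). Neutrophil markers (4 of 5 measured higher, Ngp, Camp, Elane and Mpo not passing the filter) had a mean of 6.62 to 7.84 in normals and 10.21 to 11.64 in tumours. S100a9 (7.39) and S100a8 (6.55) rose most, Cxcr2 (1.00) and Csf3r (0.99) rose less, and Ltf (2.68) was not called. The rise of the neutrophil mean thus came mainly from S100a9 and S100a8, and this mean does not measure the number of neutrophils. Ltf was also high in normal 1 (12.04), the normal with salivary gland signal. Endothelial markers (6 of 7 lower) went from 8.88 to 9.01 down to 7.61 to 8.32. Macrophage markers (2 of 8 higher and 2 lower, 25% each, near the shares of all genes) spanned 8.43 to 8.86 over the normals and 7.72 to 9.03 over the tumours. Fibroblast markers (1 of 8 higher, 4 lower) spanned 9.63 to 10.17 and 8.60 to 9.88, and the 2 measured B cell markers (1 higher) 6.48 to 6.73 and 6.47 to 6.77. The part of these cells in the mitotic changes was not tested. In bulk tissue a change in the number of cells of a type and in the RNA per cell cannot be told apart.

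Markers of basal squamous epithelium, the layer that divides, were mostly higher in the tumours. Of its 12 measured markers 10 were higher and 2 lower, where 32.5% of all genes were called higher and 23.6% lower. The 2 lower were the keratins Krt15 (−2.25) and Krt14 (−0.30), each with every tumour below every normal, so the markers did not move as one. The mean log2 signal of the 12 markers spanned 10.63 to 11.14 over the normals and 11.96 to 12.47 over the tumours. Relative to the mean of these markers on each array, 19 mitotic genes were higher in the tumours, 8 were lower and 12 were not called, with a median of 0.27. On this scale 2.2% of all genes were called higher and 89.6% lower, so a gene called lower on it is like most genes of the arrays. The genes still higher included Cenpa (1.43), Cdc20 (1.26), Prc1 (1.24), Plk1 (1.14), Birc5 (1.07) and Cdk1 (1.06). The 8 lower were Pttg1 (−1.56), Bub3 (−1.40), Spc24 (−1.002), Cenpq (−0.72), Ube2c (−0.60), Zwilch (−0.60), Cenpk (−0.39) and Espl1 (−0.37). The mitotic mean minus the basal mean was −3.59 to −3.45 in normals and −3.35 to −2.92 in all tumours but tumour 2, which stood at −3.75.

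**Figure D4:**
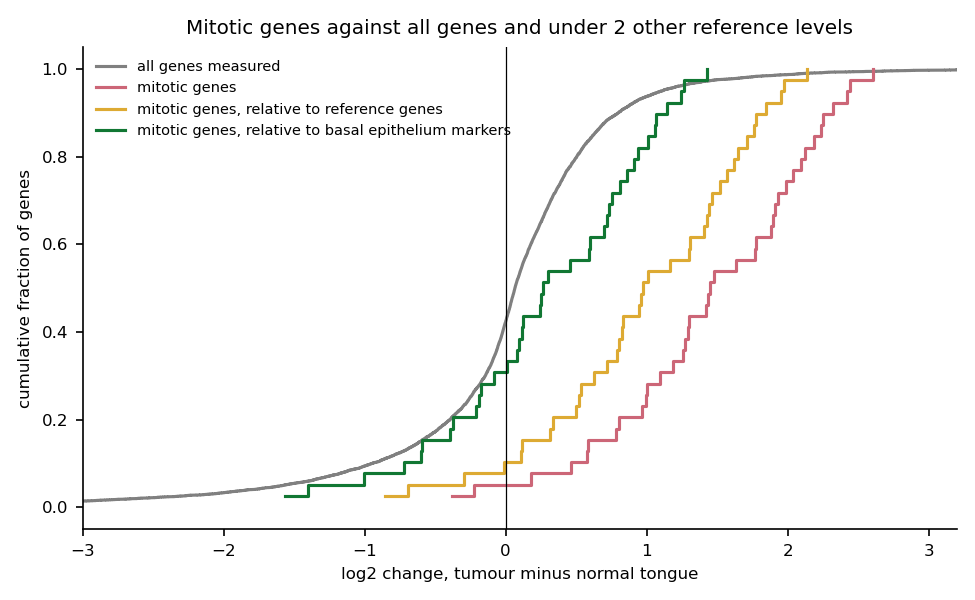
Cumulative fraction (vertical axis) of log2 changes, tumour minus normal tongue (horizontal axis), for all 10789 genes measured and for the 39 mitotic genes as measured, relative to reference genes and relative to basal epithelium markers. The axis leaves out the outermost changes of all genes, and the median of the mitotic genes moves from 1.45 to 0.98 and to 0.27.

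Among 8 related lists of cell division genes outside the 60, 61 of 85 measured genes were higher (71.8%, against 32.5% of all genes) and 7 lower (8.24%, against 23.6%). DNA replication machinery rose in 15 of 16 genes with 0 lower (median 1.09), among them Mcm5 of the replicative helicase (1.72), thymidine kinase Tk1 (1.605) and the ribonucleotide reductase subunit Rrm1 (1.39). The mean of the 39 mitotic genes minus that of the replication genes was −0.86 to −0.64 in normals and −0.56 to −0.17 in tumours, which did not overlap, so the mitotic mean rose by 0.42 more than the replication mean. Other kinetochore subunits rose in 11 of 14 genes with 0 lower (median 0.67), led by Mis18a (1.25), which licenses Cenpa loading, Ska3 (1.20), of a complex that tracks microtubules, and Cenpi (1.10). Other mitotic kinesins and condensin II rose in 5 of 6 genes (median 0.79), with the kinesins Kif18b (1.90) and Kif15 (1.66) and the condensin II subunit Ncapg2 (0.80).

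Regulators of mitosis, centrosome genes and cohesin genes were mostly higher, where 32.5% of all genes were called higher and 23.6% lower. Of the MuvB and DREAM complexes, which repress cell cycle genes in resting cells and, with Mybl2, activate them in dividing cells, 5 of 6 measured genes were higher (median 0.89), among them Mybl2 (1.27), Rbl1 (1.24) and the E2F partner Tfdp1 (0.94). Regulators of the entry into mitosis were higher in 7 of 9 cases and lower in 1 (median 0.50), with Gtse1 (1.75), the Plk1 activator Bora (1.28) and the phosphatase Cdc25b (1.26). Centrosome and spindle pole genes were higher in 6 of 11 (54.5%) and lower in 3 (27.3%, no less than the 23.6% of all genes), with a median of 0.64. Cep55 (1.35), of abscission, and Aspm (1.08), of the spindle poles, were higher and pericentrin Pcnt (−1.13) was lower. Cohesin and its regulators were higher in 6 of 10 with 0 lower (median 0.30). There the protector of centromeric cohesion Sgo1 (1.69), the acetyltransferase Esco2 (1.03) and the cohesin core gene Smc1a (0.70) rose most.

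Of the anaphase-promoting complex itself, which Cdc20 activates, 6 of 13 genes were higher (46.2%, against 32.5% of all genes), 3 lower (23.1%, against 23.6%) and 4 not called (median 0.23). The share lower was close to that of all genes. Its subunits Anapc5 (−0.78) and Anapc16 (−0.56) were lower and Fzr1 (0.65), the activator that follows Cdc20, was higher. Across the 8 lists 36 of 85 genes were higher and 21 lower after centring on reference genes (9.82% and 61.3% of all genes). Relative to basal epithelium markers 6 were higher and 57 lower (2.2% and 89.6% of all genes).

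**Figure D5:**
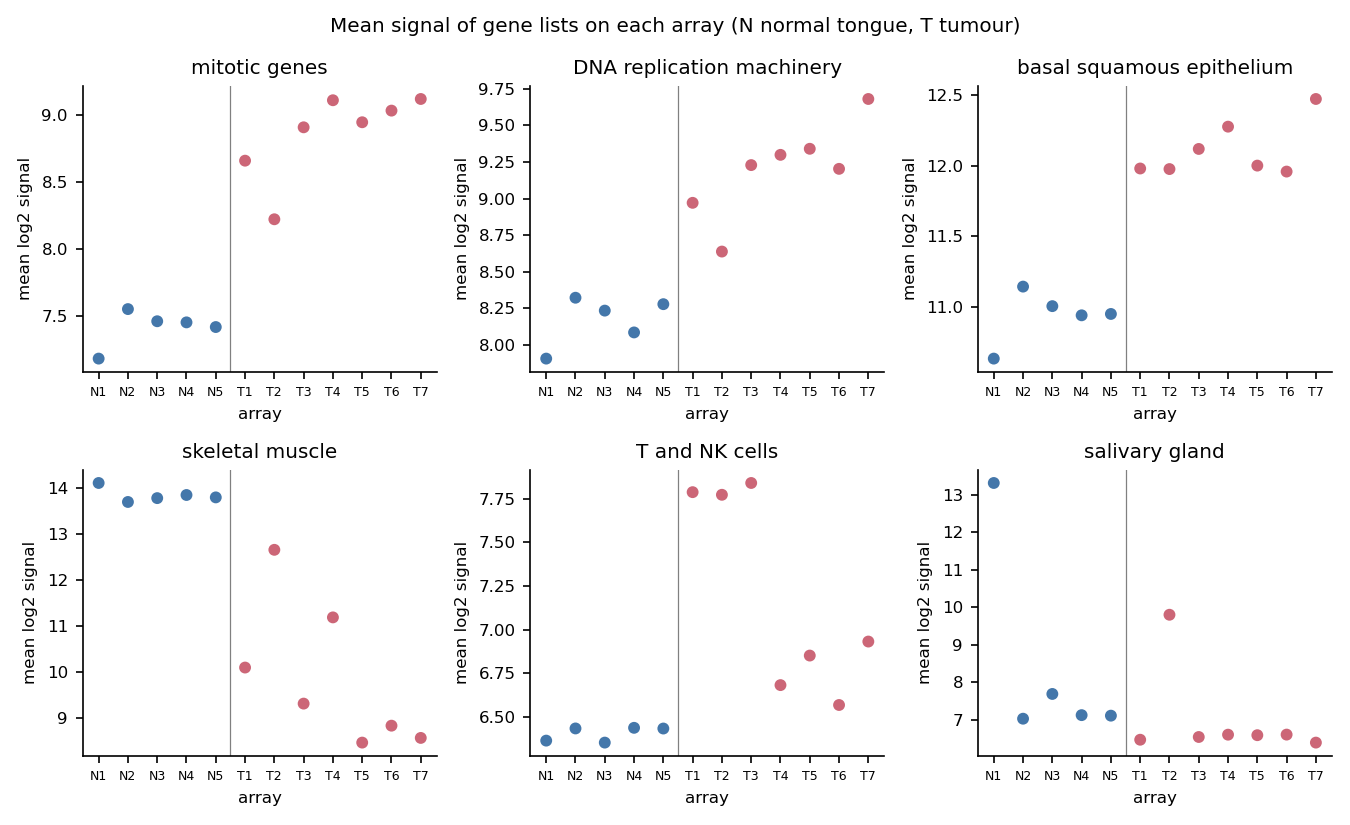
Mean log2 signal (vertical axes, each with its own range) of the mitotic genes, DNA replication machinery and 4 marker lists on each array, with normals N1 to N5 in blue and tumours T1 to T7 in red. The mitotic and replication means separate the groups, tumour 2 is the lowest tumour in both and the highest in muscle, and salivary signal stands out on N1 and T2.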

How the data were processed

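The values used are the deposited log2 signals of the authors' table, with 25697 probes on each of 12 arrays. That the logarithm has base 2 was read off the range, 5.05 to 15.53. All arrays share a median of 6.56 with unequal quartiles, so they had been scaled without a quantile step. Per the submitters' processing notes BeadStudio and Partek 6.6 were used, and what each did is not given in the sources used here. A second table was not used: none of its 24 columns carries a name found among the sample labels.

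From there the signals were unlogged, background corrected with normexp (offset 50), quantile normalised and logged again to base 2. A probe was above background where its deposited value exceeded the array's mode plus 1.64 SD of the lower side, which held for 14691 to 15432 probes per array. Probes above it on at least 5 arrays were kept (15708, 61.1%), and limma 3.58.1 in R 4.3.3 was fitted to all of them (two-sided, Benjamini-Hochberg). Each gene is represented by its brightest kept probe, named through the array annotation and, for 23962 of the 23978 probes with a symbol, updated by gene ID to GRCm38.p6 names. The number of arrays limits the precision. On simulated data with the arrays' own spread, 66% of changes of log2 0.5 and 88% of log2 1 were recovered. There only 50 of 15708 probes were given each size of change, and the background correction and normalisation were not simulated. In the data 32.5% of genes were called higher and 23.6% lower, so these shares need not hold for them.

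Members and lists were chosen with earlier results of these data known. Per-array values are given for the largest and smallest change of each role, for members not called or lower, and for the tested pair; outside the members up to 3 genes per list, by size of change past the threshold, are named. Replicate numbers occur in both groups, but normals came from control mice and tumours from treated mice, so the numbers cannot pair pieces within a mouse. Same-numbered pieces deviated with correlations of −0.37 to 0.08, which cannot by themselves show that the numbers carry no pairing. Promoters are RefSeq entries of GRCm38.p6 for 50 of the 60 genes. Figures were drawn with matplotlib 3.10.9.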

Additional observations from a re-analysis of the deposited data

Results flagged for a closer look

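Some members had an array far from the rest of its group by Dixon's gap test. Of 78 groups checked 7 were so marked, where chance gives about 3.9. Tumour 2 was set apart as lowest of the tumours for Cdc20 (9.86, next 10.86), Pbk (9.14, next 9.93) and Cdca8 (7.73, next 8.52). Normal 1 was set apart as lowest of the normals for Cenpn (6.77, next 7.10), Cdca8 (6.45, next 6.90), Kif22 (7.19, next 7.57) and Kif23 (7.06, next 7.62). All 7 marks fall on these 2 arrays, which are also the 2 with salivary gland signal. Without both, the 36 genes called higher were the same 36.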

How the results depend on the processing

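Besides the 2 centrings, the same 36 mitotic genes were called higher under deposited values without further correction, cyclic loess, 75th percentile centring, no filter (with Ttk and Smc2 added), the mean over probes (with Spc24 added), array weights, the replicate block (36 higher, 1 lower, median 1.35) and every removal of 1 array, and 34 of 37 with a filter of at least 10 arrays. Medians ranged from 1.26 (no filter) to 1.57 over these settings. Genes called lower numbered 2 under cyclic loess, 2 after centring on reference genes, 8 relative to basal epithelium markers and 1 to 2 over the removals of 1 array, with Bub3 added to Pttg1 under loess, after centring on reference genes and without tumour 5. Centring on reference genes gave 32 members higher, 19 at least 2-fold, a median of 0.98, 1059 of all genes higher, and 36 higher and 21 lower in the related lists. Centring on basal epithelium markers gave 19, 7, 0.27, 237, and 6 and 57. Both move all genes by construction, with 61.3% and 89.6% of all genes called lower: the median of all genes was 0.07 as measured, −0.40 and −1.11. Changes that turned sign after centring on reference genes were Cenpq (−0.0097), and relative to basal markers Foxm1 (−0.21), Zwilch (−0.60), Ube2c (−0.60), Espl1 (−0.37), Cdca5 (−0.19), Cenph (−0.18), Cenpk (−0.39), Cenpq (−0.72), Spc24 (−1.002) and Ncapd2 (−0.084). Of 895 recomputed changes of single members 867 kept direction and side of the threshold, 11 lost the call, 5 gained it and 12 turned sign, the last including the uncalled Spc24 at −0.29 after centring on reference genes. Members below background cannot be judged at this signal.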

Other observations

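Of the listed genes below background, Ttk (log2 difference 0.36, adjusted p = 0.00177) and Smc2 (0.17, adjusted p = 0.00935) were called higher when no filter was applied, and the other 9 were not. Ccna2 had a difference of 0.24 (adjusted p = 0.0523). These probes lay at or under the background on nearly all arrays, so the sizes say little about the transcripts.

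The related hexamer TTTAAA stood in 9 of 50 member promoters (18.0%), against 13.8% of protein-coding genes. The TTTGAA share was 66.7% of 6 promoters for other mitotic kinesins and condensin II, found in 4 of 8 for centrosome and spindle pole genes, 30.8% of 13 for other kinetochore subunits, 20.0% of 15 for DNA replication machinery and 16.7% of 12 for the anaphase-promoting complex. Lists this short leave the shares imprecise.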
